A study of Mus musculus with 14 samples.

Results

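The change in the transcriptome from the 1-cell to the 2-cell stage was compared between mouse embryos cloned by somatic cell nuclear transfer (SCNT: an oocyte without its own chromosomes receives a body cell's nucleus) and embryos made by in vitro fertilisation (IVF). For each gene the mean 1-cell level was subtracted from the mean 2-cell level in each kind of embryo, and the IVF change was subtracted from the SCNT change, all on the log2(FPKM + 1) scale. FPKM is the number of fragments scaled to transcript length and to the library's mapped fragments. A positive difference therefore stands for a gene that ended relatively higher after SCNT, because it rose more or fell less, and a negative difference for the opposite. The members were all 22485 genes of the table, of which 13448 passed the filter of at least 1 FPKM in at least 2 libraries and were tested. The values compared come from 8 of the 14 libraries of the series, 2 in each of the 4 groups. The filter and the error of the test used all 14 libraries.

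IVF embryos came from C57BL/6J oocytes and CAST/EiJ sperm, and their libraries covered 32 and 31 embryos at the 1-cell and 25 and 25 at the 2-cell stage. SCNT embryos came from nuclei of (C57BL/6J x CAST/EiJ) F1 cumulus cells, the somatic cells around the oocyte, in B6D2F1 recipient oocytes. Their libraries covered 36 and 36 embryos at the 1-cell and 40 and 40 at the 2-cell stage. The labels name no added gene or treatment for these 4 groups. In the protocol text the cumulus cells are from BDF1 females, which differs from the strain labels. The strain of the oocyte, the activation of the oocyte and the source of the nucleus all differ between SCNT and IVF and cannot be told apart. The remaining libraries are the donor cumulus cells and SCNT 2-cell embryos that overexpress Kdm4d or a mutant Kdm4d, 25 embryos a library and 2 libraries a group. The labels give neither the mutation nor the way of overexpression, no ages of embryos, and no word on whether replicates were separate experiments, so p-values measure only the spread between these libraries.

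A fertilised mouse egg first lives on RNA stored by the oocyte. During the first cell cycles these maternal transcripts are degraded while the embryo's own genome is switched on, with its main wave at the 2-cell stage. That wave holds genes that are on almost nowhere else, among them the Zscan4 family, several Obox homeobox genes and Tdpoz genes, together with many genes for making ribosomes and RNA. After SCNT, oocyte cytoplasm acts on a nucleus that was running a somatic programme. Kdm4d removes methyl groups from lysine 9 of histone H3, a mark of silent chromatin.

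Between 8451 and 10564 genes reached 1 FPKM in the 8 libraries, and their sums of FPKM ran from 182824 to 345730. Depths estimated from the steps between low values lay between 0.779 and 1 relative to the deepest library, and the other libraries went down to 0.415. Replicate libraries ranked the genes alike, with a Spearman's rho of 0.952 to 0.965 across genes in the 4 groups. In the 8 libraries Kdm4d itself was below 1 FPKM throughout, at 0.759 and 0.415 in IVF 2-cell and 0.543 and 0.327 in SCNT 2-cell libraries, and its stage changes did not differ beyond the error (difference -0.23, SE 0.73, adjusted p = 0.851). It reached 8879 and 2255 FPKM in the Kdm4d and 723 and 283 in the mutant libraries, as their labels state. The libraries are pools, so fewer embryos with a transcript and less transcript in each embryo cannot be told apart.

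Of the 13448 genes tested, 2225 (16.5%) had a higher and 1704 (12.7%) a lower difference at an adjusted p under 0.05, 3929 (29.2%) in all. For each of these genes, the 4 possible single-library stage changes of SCNT and the 4 of IVF did not overlap. This rests on the same values as the call and was not counted over all tested genes, so it is not separate support. The median difference over all genes tested was 0.17. At least a 2-fold difference was reached by 1534 (11.4%) of the higher and 1356 (10.1%) of the lower genes. Past 8-fold the balance turned, with 22 genes (0.164%) higher and 62 (0.461%) lower. With the FPKM sums of all libraries made equal, the median moved to 0.36 and the calls to 3447 higher and 1187 lower, so the split between higher and lower depends on the scaling. Fitted on the 8 libraries alone, 3794 and 2618 genes were called.

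**Figure D1:**
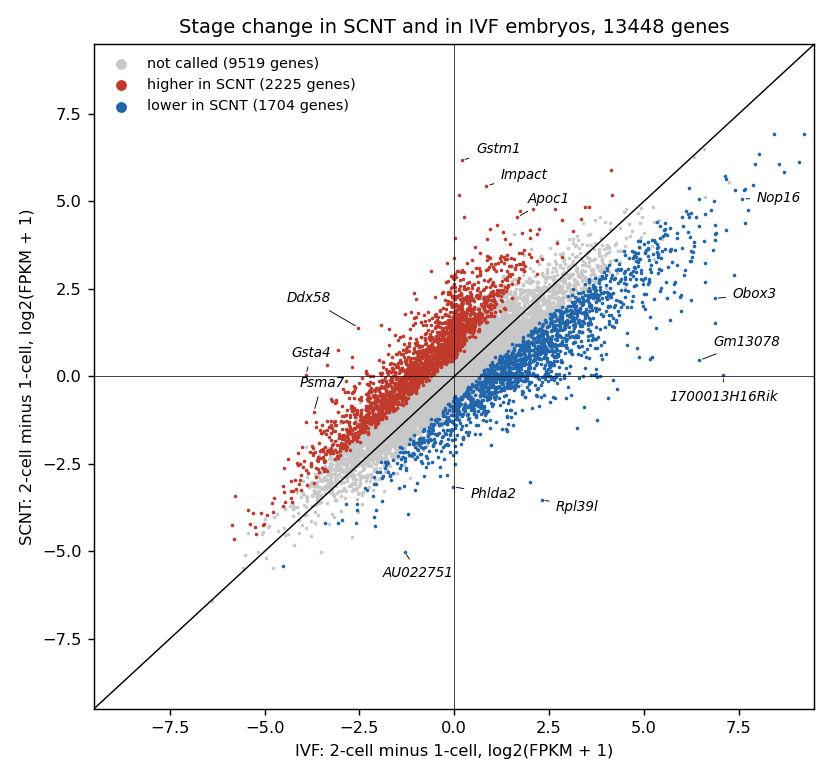
Each point is 1 of 13448 genes, with its IVF stage change on the horizontal and its SCNT stage change on the vertical axis, both as differences of mean log2(FPKM + 1). The diagonal marks equal changes; 2225 genes called higher lie above it and 1704 called lower lie below it, with 1700013H16Rik, Gm13078 and Gstm1 farthest from it.

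The difference arose mostly at the 2-cell stage. At the 1-cell stage the SCNT and IVF means differed for 181 genes (1.35%) upward and 131 (0.974%) downward, whereas at the 2-cell stage they differed for 4076 (30.3%) and 2229 (16.6%). The SCNT to IVF gap was larger at the 2-cell than at the 1-cell stage in 2030 of the 2225 higher genes (91.2%) and in 1544 of the 1704 lower genes (90.6%), against 76.1% of all genes tested. These 3 comparisons share libraries and are given as levels, not as independent evidence.

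The called genes were sorted by what each stage change did, taking a mean change of at least 2-fold as a rise or fall. Here 2-fold stands for a change of 1 on the log2(FPKM + 1) scale, so low genes can more than double in FPKM and stay under it. Of the 4303 changes of that size in called genes, 4301 also passed the test of the stage change itself. Among the higher genes, 672 (30.2%) rose after SCNT with under a 2-fold change after IVF, and 585 (26.3%) fell after IVF with under a 2-fold change after SCNT. Of the 672, 489 had a mean under 1 FPKM in IVF 1-cell and 459 in IVF 2-cell embryos, where the scale understates changes. Another 327 (14.7%) fell in both but less after SCNT, 112 (5.03%) rose in both but more after SCNT, and 16 rose after SCNT while falling after IVF. Both changes stayed under 2-fold in 513 (23.1%). Smaller falls and larger rises were thus both frequent among the genes relatively higher after SCNT.

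The lower genes were mostly genes that IVF embryos gained. After IVF, 610 (35.8%) rose with under a 2-fold change after SCNT, and 590 (34.6%) rose in both kinds but less after SCNT. A smaller set of 174 (10.2%) fell after SCNT with under a 2-fold change after IVF, 72 (4.23%) fell in both but further after SCNT, and 14 rose after IVF and fell after SCNT. In 244 (14.3%) both changes stayed under 2-fold. In the genes that rose less after SCNT, the median level went from 0.776 to 33.1 FPKM in IVF and from 1.60 to 13.4 in SCNT embryos.

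**Figure D2:**
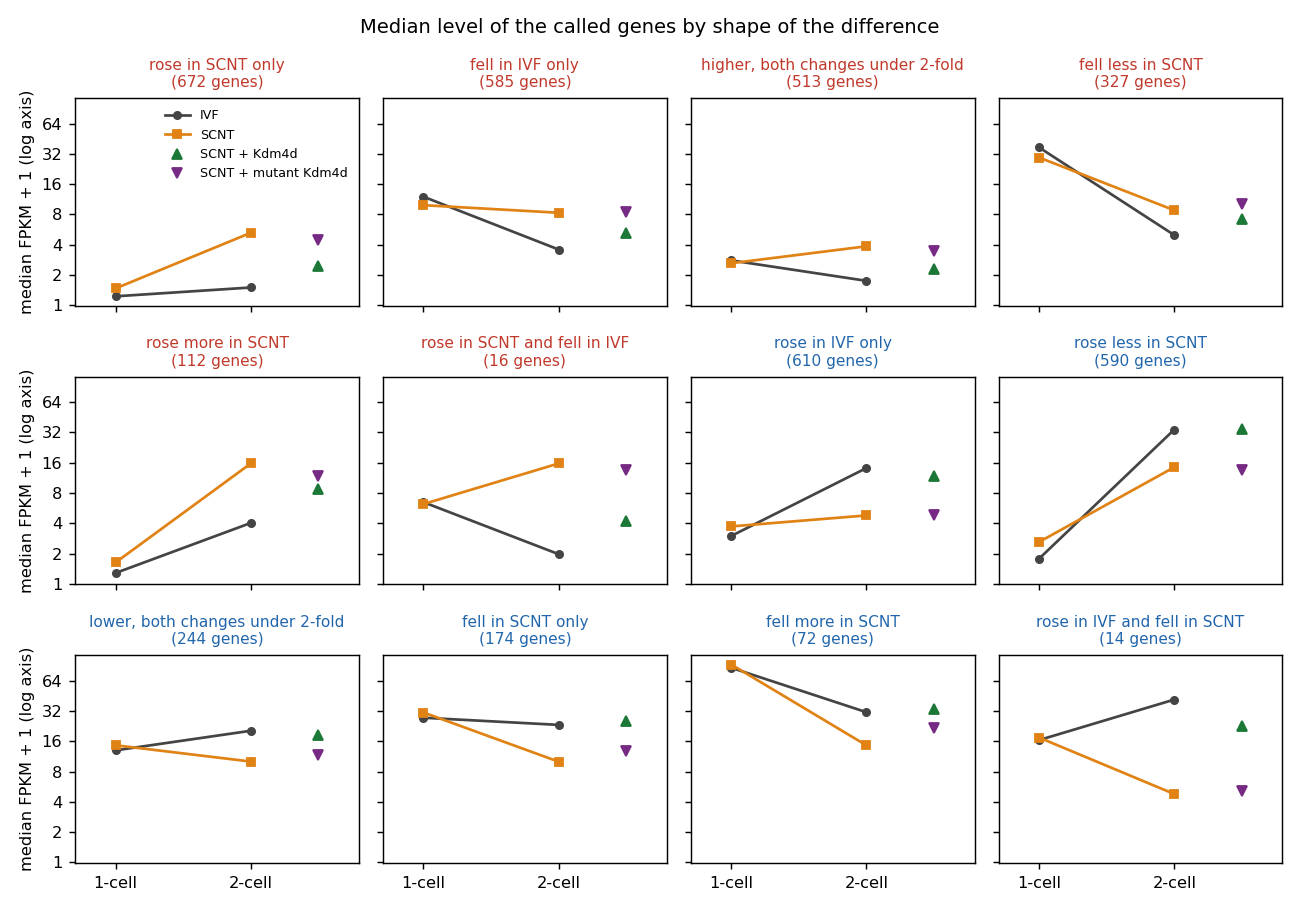
Median FPKM + 1 (log axis) of the called genes by shape, at the 1-cell and 2-cell stages in IVF (grey) and SCNT (orange) embryos, with the 2-cell medians of Kdm4d (upward triangles) and mutant Kdm4d (downward triangles) embryos at the right. Within each panel the IVF and SCNT medians lie closer at the 1-cell than at the 2-cell stage.

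Genes that rose at least 2-fold after SCNT but not after IVF, on the log2(FPKM + 1) scale, were led by Gstm1, a glutathione transferase gene (mm9 chr3:107815168-107820891). In IVF embryos it had 0.0843 and 0.0181 FPKM at the 1-cell and 0.173 and 0.234 at the 2-cell stage. In SCNT embryos it had 0.857 and 0.458 and then 131 and 106 (difference 5.98, SE 0.27, adjusted p = 3.82e-07). Both SCNT 2-cell libraries were thus far above the other 6, and the donor cumulus cells had 29.8 and 32.7. Ripk3, a kinase gene of necroptosis (chr14:56403832-56407694), was at 0 in both IVF 1-cell libraries, had 0.156 and 0.0418 in IVF 2-cell and 0.0115 and 0 in SCNT 1-cell libraries, and reached 36.5 and 35.0 in SCNT 2-cell libraries (difference 5.06, SE 0.47, adjusted p = 3.76e-05). Its donor levels were 2.60 and 1.96, below those of the SCNT 2-cell embryos. Impact, imprinted and active on the paternal chromosome, went from 2.75 and 2.53 to 5.76 and 5.36 after IVF and from 4.69 and 5.59 to 321 and 219.8 after SCNT (difference 4.59, SE 0.47, adjusted p = 7.10e-05).

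Among genes that rose more after SCNT, Apoc1, an apolipoprotein gene (chr7:20274830-20278007), went from 0.448 and 0.348 to 3.94 and 2.96 in IVF and from 0.252 and 1.49 to 41.7 and 39.0 in SCNT embryos (difference 2.88, SE 0.44, adjusted p = 7.47e-04). Crip1, for a small LIM domain protein, went from 0.301 and 0.567 to 3.38 and 4.08 and from 0.546 and 0.408 to 33.0 and 43.3 (difference 2.99, SE 0.52, adjusted p = 0.00148). The donor cells had 226 and 125 FPKM of Apoc1 and 156 and 260.5 of Crip1, above every embryo library. A donor level of at least 10 FPKM was found for 51.8% of the genes that rose more after SCNT, for 25.7% of those that rose in SCNT with under a 2-fold change in IVF, and for 26.6% of all genes tested. The lower side had such shares too: 40.3% of genes that rose less and 45.8% of those that fell more after SCNT. Over all higher genes the share was 30.7%, and over all lower genes 35.8%. The long noncoding 2900093L17Rik rose to 27.9 and 23.2 after SCNT and to 1.78 and 1.20 after IVF (difference 3.19), with 0 and 0.148 in the donor cells, and it overlaps Frmpd1, so its value is uncertain.

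Genes that fell after IVF but were held after SCNT were led by Gsta4, another glutathione transferase gene (chr9:78039773-78057156). The IVF libraries went from 67.6 and 73.7 to 3.44 and 4.11 FPKM, while the SCNT libraries stood at 59.6 and 69.9 and then 73.1 and 60.3 (difference 3.95, SE 0.25, adjusted p = 5.67e-06). The 2 IVF 2-cell libraries were the only low ones of the 8. Mrps18a and Mrps31, for proteins of the small mitochondrial ribosome, showed the same shape. Mrps31 (chr8:23521812-23540137) went from 16.2 and 17.9 to 0.709 and 0.800 after IVF and from 9.98 and 7.28 to 13.7 and 8.72 after SCNT (difference 3.69, SE 0.31, adjusted p = 2.32e-05). For Mrps18a the IVF libraries ended at 3.25 and 0.806 and the SCNT libraries at 44.5 and 43.8 (difference 3.81, SE 0.60, adjusted p = 9.34e-04).

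Among genes that fell in both kinds but less after SCNT, Psma7, a proteasome core subunit (chr2:179771081-179777107), went from 310.2 and 355 to 24.1 and 25.1 in IVF and from 266 and 279.7 to 142 and 127 in SCNT embryos (difference 2.68, SE 0.22, adjusted p = 2.25e-05). Rgs2, which dampens G protein signals, ended at 6.09 and 6.63 in IVF and 25.0 and 24.2 in SCNT embryos, having started at 389 and 415 and at 269 and 279 (difference 2.35, SE 0.19, adjusted p = 2.26e-05). Tmem50a, for a membrane protein, ended at 3.57 and 3.48 in IVF and 16.6 and 8.19 in SCNT embryos (difference 2.61), from 1-cell levels of 66.8 and 68.1 against 28.3 and 33.0. The 3 genes lost most of their RNA after IVF and kept a larger part of it after SCNT.

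Opposite changes of at least 2-fold each were found in 16 higher and 14 lower genes. Smaller opposite changes stood beside them: where both changes stayed under 2-fold, the median IVF and SCNT changes were -0.45 and 0.61 in the higher genes and 0.67 and -0.53 in the lower genes. Ddx58, which encodes the RNA sensor RIG-I (chr4:40150810-40186858), had 10.3 and 10.3 against 11.5 and 11.5 FPKM in the IVF and SCNT 1-cell libraries. It went down to 1.10 and 0.827 after IVF and up to 34.8 and 29.2 after SCNT (difference 3.92, SE 0.23, adjusted p = 3.01e-06). Ptgr1, a prostaglandin reductase gene, and Ppil3, a peptidyl-prolyl isomerase gene, moved the same way (differences 3.42 and 3.39). The largest difference among higher genes with both changes under 2-fold was that of Mrpl30, a mitochondrial ribosomal protein gene, with 5.13 and 4.46 in IVF and 22.5 and 19.6 in SCNT 2-cell libraries (difference 1.85).

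**Figure D3:**
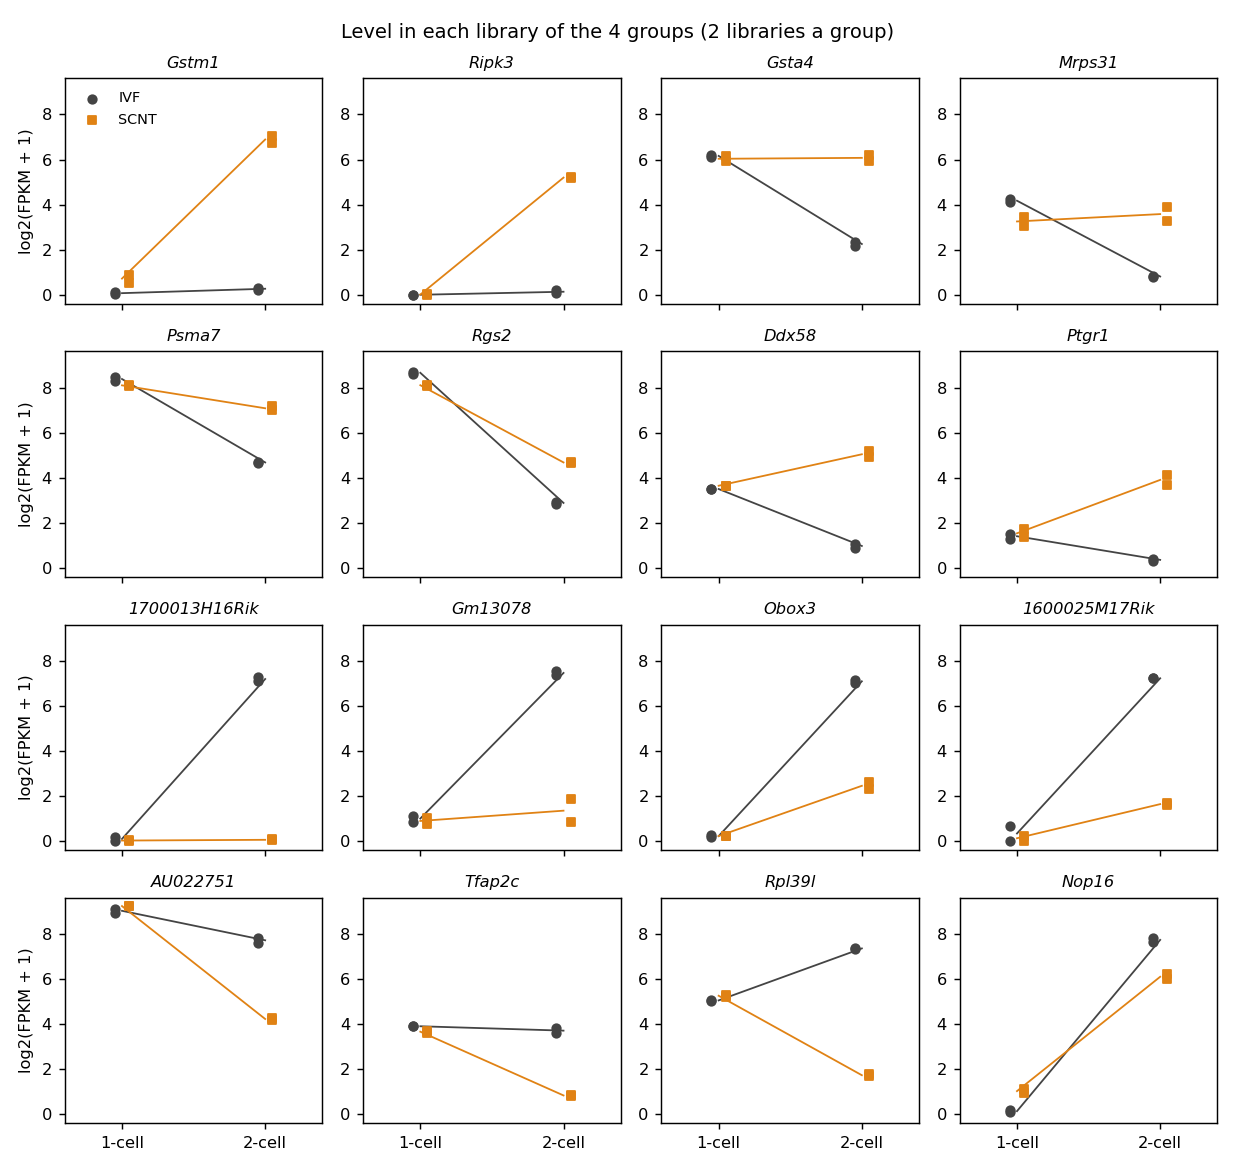
Level on the log2(FPKM + 1) scale of 16 named genes in each of the 8 libraries, IVF as circles and SCNT as squares, with lines through the group means. The 2 replicates mostly lie close together. At the 2-cell stage SCNT lies above IVF in the upper 8 panels and below it in the lower 8, and Nop16 differs at the 1-cell stage too. The genes were picked for called differences, so the parting of the lines is not a separate result.

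On the lower side, 1700013H16Rik on the X chromosome (chrX:51046078-51061008) had the largest difference of all. It went from 0.126 and 0 to 135 and 154 FPKM after IVF and stayed at 0.0187 and 0 and then 0.0443 and 0.0207 after SCNT (difference -7.06, SE 0.34, adjusted p = 5.28e-07). Gm13078, of the PRAME family on chromosome 4 (chr4:143309358-143319061), went from 1.18 and 0.812 to 186 and 162 after IVF and from 0.702 and 0.997 to 0.785 and 2.59 after SCNT (difference -6.004, SE 0.78, adjusted p = 2.76e-04). Gm5 started at about the same level in both, 29.4 and 31.9 against 32.9 and 34.7, and ended at 543 and 514 after IVF and 22.5 and 21.1 after SCNT (difference -4.67, SE 0.21, adjusted p = 3.82e-07). In these 3 genes the IVF 2-cell libraries stood alone above the other 6.

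Other IVF-activated genes were switched on after SCNT, but to a small part of the IVF level. X-linked 1600025M17Rik reached 147 and 148 FPKM after IVF and 2.17 and 2.02 after SCNT (difference -5.37, SE 0.86, adjusted p = 9.56e-04). Obox3, a homeobox gene (chr7:16210655-16225126), reached 141 and 128 against 3.88 and 5.06 from 1-cell levels of 0.131 and 0.184 against 0.150 and 0.171 (difference -4.64, SE 0.35, adjusted p = 1.35e-05). Rfpl4b, a RING finger gene, reached 253 and 269.5 against 5.71 and 7.97 (difference -4.48, SE 0.91, adjusted p = 0.0038).

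Some genes lost after SCNT were kept after IVF. Phlda2, an imprinted growth regulator expressed from the maternal copy (chr7:150687453-150688429), had 15.3 and 22.9 and then 18.0 and 18.6 FPKM in IVF embryos. SCNT embryos went from 36.5 and 41.3 to 3.43 and 3.52 (difference -3.12, SE 0.36, adjusted p = 1.58e-04), and their 1-cell libraries did not pass the test against those of IVF. Tfap2c, a transcription factor of the early trophectoderm, stood at 13.7 and 13.9 and then 13.1 and 10.9 after IVF and went from 11.9 and 11.2 to 0.782 and 0.747 after SCNT (difference -2.64, SE 0.36, adjusted p = 4.02e-04). Fkbpl, for an FKBP-like protein, had a difference of -2.91, with 3.16 and 1.51 in SCNT against 29.0 and 26.5 in IVF 2-cell libraries. Among genes that fell in both, AU022751 on the X chromosome went from 544 and 488 to 224 and 193 after IVF and from 597 and 596 to 16.8 and 18.3 after SCNT (difference -3.70, SE 0.67, adjusted p = 0.00202). Zar1l, a relative of the maternal factor Zar1, and Trim13, a ubiquitin ligase gene, followed with differences of -2.73 and -2.22, though Trim13 overlaps Dleu2 and its value is uncertain.

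Rpl39l, a germline paralogue of the ribosomal protein gene Rpl39 (chr16:10170321-10175004), had close starts and opposite changes. Its 1-cell levels were 32.4 and 31.3 FPKM after IVF and 35.7 and 38.1 after SCNT, and its 2-cell levels 162 and 161 against 2.37 and 2.21 (difference -5.83, SE 0.44, adjusted p = 1.35e-05). Akr1c18, a progesterone-metabolising enzyme gene of the cumulus marker list, had another course. It was at 23.9 and 38.8 in SCNT 1-cell libraries against 0.114 and 0 in IVF 1-cell libraries, and the donor cells had 3658 and 3214. At the 2-cell stage it was at 3.03 and 2.79 after SCNT and 2.29 and 4.33 after IVF (difference -5.00, SE 0.53, adjusted p = 9.38e-05). Its negative difference thus holds a 1-cell excess in SCNT libraries more than a 2-cell deficit.

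The transcripts known from the 2-cell stage had the largest median difference of the pathway lists. Of 39 tested members, 0 were higher and 34 (87.2%) lower, against 16.5% and 12.7% of all tested genes. All 39 differences were negative, with a median of -2.45 against 0.17 for all genes. By limma, 38 of them rose after IVF and 25 after SCNT, where 30.4% and 35.5% of all tested genes rose. Their summed level went from 217 and 223 to 3849 and 3676 FPKM in IVF and from 231 and 233 to 1006 and 909 in SCNT embryos. Many belong to families with near-identical copies, so single values are uncertain: the median share of 50-base stretches also found in transcripts of other genes was 46.8%. Without the members over 30% shared, 12 of 17 were lower and the median was -2.64, with any member of unmeasured share kept in. Zscan4d, of a telomere-linked zinc finger family (chr7:11746992-11751497), went from 2.36 and 1.55 to 41.4 and 36.5 after IVF and from 2.60 and 2.59 to 0.228 and 0.898 after SCNT (difference -5.01, SE 0.45, adjusted p = 3.14e-05), with 48.9% of its stretches shared.

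Promoters of strongly differing genes are shown because their letters differ from those of most tested genes, and these 5 genes were chosen after their values and motif matches were seen. Each is the RefSeq promoter of build GRCm38.p6, 250 bases before to 50 after the gene start, 5′ to 3′ on the gene's strand. Capitals mark TATAAA and GGATTA on either strand in the first 4 genes and CGGAAG on either strand in Ppat.
Obox3 (chr7:15639728-15640027, minus strand): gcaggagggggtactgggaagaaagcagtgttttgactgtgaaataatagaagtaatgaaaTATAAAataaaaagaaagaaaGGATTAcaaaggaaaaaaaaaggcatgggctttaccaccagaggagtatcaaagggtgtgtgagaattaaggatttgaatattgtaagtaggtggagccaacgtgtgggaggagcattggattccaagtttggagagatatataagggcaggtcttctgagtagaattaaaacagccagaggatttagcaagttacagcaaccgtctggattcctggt
Gm11487 (chr4:73405023-73405322, minus strand): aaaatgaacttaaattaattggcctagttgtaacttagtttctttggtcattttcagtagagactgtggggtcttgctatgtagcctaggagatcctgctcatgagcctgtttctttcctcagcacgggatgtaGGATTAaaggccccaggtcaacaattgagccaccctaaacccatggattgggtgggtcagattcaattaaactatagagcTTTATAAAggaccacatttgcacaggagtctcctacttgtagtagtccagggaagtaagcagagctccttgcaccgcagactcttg
Gm428 (chr4:73683264-73683563, plus strand): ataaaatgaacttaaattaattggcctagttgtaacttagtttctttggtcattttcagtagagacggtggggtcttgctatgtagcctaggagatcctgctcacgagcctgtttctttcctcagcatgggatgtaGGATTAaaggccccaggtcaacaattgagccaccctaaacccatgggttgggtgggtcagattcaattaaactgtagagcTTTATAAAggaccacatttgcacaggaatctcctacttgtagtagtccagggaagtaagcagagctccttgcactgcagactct
Rpl39l (chr16:10169978-10170277, plus strand): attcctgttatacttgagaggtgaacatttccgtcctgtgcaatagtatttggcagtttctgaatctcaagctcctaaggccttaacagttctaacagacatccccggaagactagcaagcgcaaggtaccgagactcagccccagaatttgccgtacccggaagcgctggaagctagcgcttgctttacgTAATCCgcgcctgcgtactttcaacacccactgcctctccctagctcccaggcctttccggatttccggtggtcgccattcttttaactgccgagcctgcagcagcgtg
Ppat (chr5:76951529-76951828, minus strand): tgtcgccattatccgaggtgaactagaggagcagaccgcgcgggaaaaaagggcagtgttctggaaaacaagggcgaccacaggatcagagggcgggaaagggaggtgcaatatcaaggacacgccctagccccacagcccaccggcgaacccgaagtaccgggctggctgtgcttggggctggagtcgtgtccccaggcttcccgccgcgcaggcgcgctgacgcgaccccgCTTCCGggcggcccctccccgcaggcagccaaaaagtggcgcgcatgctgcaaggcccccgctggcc

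Gm11487 and Gm428 lie in 1 cluster on chromosome 4 and share sequence (40.6% and 95.3% of stretches), so their common letters are not 2 observations. Gm11487 went from 3.27 and 2.51 to 37.4 and 34.2 FPKM after IVF and from 4.12 and 3.99 to 0.121 and 1.92 after SCNT (difference -4.73), and Gm428 had 13.5 and 13.3 against 0.323 and 0.753 at the 2-cell stage (difference -3.18). Ppat, which encodes the first enzyme of purine synthesis, went from 0.461 and 0.708 to 175 and 135 after IVF and from 3.27 and 3.23 to 42.7 and 36.6 after SCNT (difference -3.36, SE 0.36, adjusted p = 8.98e-05). Ppat overlaps Paics, so its value is uncertain, and its SCNT libraries were already higher at the 1-cell stage.

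A RefSeq promoter was at hand for 9582 of the 13448 tested genes. CGGAAG, the core that many ETS factors recognise, stood in 39.8% of promoters of lower genes, 23.5% of higher genes, 29.8% of all tested genes and 17.2% of all 27025 promoters. The share was 42.9% in genes that rose less after SCNT. Of the 62 genes at least 8-fold lower, 41 had a promoter. Among these 41, TATAAA stood in 26.8% and GGATTA, whose reverse complement is the TAATCC core of Obox and Otx homeodomains, in 26.8%, against 8.17% and 6.07% of tested genes and 14.2% and 7.16% of all promoters. Over all lower genes the shares were 8.89% and 7.57%, near those of tested genes, and CGGAAG stood in 26.8% of the 41. The median number of CG pairs in the 41 was 13, against 20 in tested genes. Of the 22 genes at least 8-fold higher, 18 had a promoter, with a median of 15 CG pairs. Among these 18, TATAAA stood in 3 (16.7%), CGGAAG in 4 (22.2%), GGATTA in 0, CACGTG in 4 (22.2%) and TGATGNAA in 2 (11.1%). In the 41 promoters of the lower side CACGTG stood in 3 (7.32%) and TGATGNAA in 0. Over the full directions, CACGTG stood in 10.4% of higher, 10.7% of lower and 9.98% of all tested genes, and TGATGNAA in 2.59%, 2.30% and 2.47%. All 5 motifs were searched on both strands, the TATAAA matches of Gm11487 and Gm428 are overlapping matches on both strands, and the shares are descriptions without a test.

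Genes for making ribosomes were mostly on the lower side. Of 112 tested ribosome biogenesis genes, 4 (3.57%) were higher and 55 (49.1%) lower, against 16.5% and 12.7% of all tested genes. The median difference was -0.79. By limma, 85 of these genes rose after IVF and 67 after SCNT, where 30.4% and 35.5% of all tested genes rose. Nop16, a nucleolar factor of the large subunit (chr13:54685552-54691435), went from 0.0481 and 0.129 to 222 and 199 FPKM after IVF and from 1.12 and 0.913 to 71.9 and 62.3 after SCNT (difference -2.53, SE 0.29, adjusted p = 1.58e-04). Mak16, another assembly factor, went from 0.854 and 0.987 to 182 and 183 and from 5.18 and 5.72 to 103 and 83.7 (difference -2.71, SE 0.23, adjusted p = 2.32e-05), with 37.6% of its stretches shared and an overlap with Tti2, so its value is uncertain. Both genes passed the test at the 1-cell stage too, higher in SCNT, so part of each difference stood there. The members called higher included Exosc1, of the RNA exosome that trims ribosomal RNA (difference 0.96, SE 0.28, adjusted p = 0.0219), a call lost without any 1 of 6 libraries (adjusted p 0.057 to 0.075).

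Cytosolic ribosomal protein genes showed 1 higher (1.25%) and 38 lower (47.5%) members of 80, against 16.5% and 12.7% of all tested genes. Their median was -0.78. Rps3 (chr7:106626407-106632219) went from 1.13 and 0.851 to 111 and 94.6 after IVF and from 4.69 and 5.32 to 80.9 and 63.3 after SCNT (difference -2.11, SE 0.33, adjusted p = 8.51e-04). Most of this difference stood at the 1-cell stage, where Rps3 was higher in SCNT by 1.59 on the log2 scale, while its 2-cell levels did not pass the test (-0.51). Rpl8 ended at 142 and 113 against 49.0 and 48.1 (difference -2.20, SE 0.29, adjusted p = 3.11e-04). Rpl14 was the exception, with 22.8 and 17.9 in IVF and 64.7 and 53.4 in SCNT 2-cell libraries (difference 1.61, SE 0.33, adjusted p = 0.00398), though 37.4% of its stretches are shared. Ribosomal protein genes have many processed copies. Without members over 30% shared, 16 of 36 were lower and 0 higher, by limma, with a median of -0.75. Any member of unmeasured share was kept in. Of 7 paralogues, 4 (57.1%) were lower, led by Rpl39l above and by Rpl10l, the autosomal germline copy of Rpl10. Rpl10l reached 50.6 and 45.7 after IVF and 0.496 and 0.928 after SCNT from below 0.5 in all 1-cell libraries (difference -4.65, SE 0.27, adjusted p = 3.00e-06).

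The machinery that makes and processes messenger RNA followed. RNA polymerase II and its general factors had 1 higher (1.96%) and 20 lower (39.2%) members of 51 (median -0.51). Of all tested genes, 16.5% were higher and 12.7% lower. Tbp, the TATA-binding protein (chr17:15636852-15654391), went from 36.3 and 39.4 to 70.5 and 65.4 FPKM after IVF and from 33.7 and 38.3 to 16.8 and 12.1 after SCNT (difference -2.11, SE 0.36, adjusted p = 0.00137). The spliceosome had 6 higher (8.70%) and 27 lower (39.1%) of 69 (median -0.67). Rbm8a, of the exon junction complex, ended at 127 and 115 after IVF and 28.8 and 25.4 after SCNT (difference -2.09, SE 0.25, adjusted p = 1.69e-04). Lsm3, of the U6 particle, went the other way: it fell from 163 and 170.0 to 24.1 and 20.1 after IVF and stood at 156 and 160.0 and then 160.1 and 132 after SCNT (difference 2.75, SE 0.36, adjusted p = 3.25e-04). Translation initiation factors had 2 higher (4.76%) and 15 lower (35.7%) of 42 (median -0.57). Among the lower, Eif3h was at 115 and 102 in IVF and 38.0 and 33.9 in SCNT 2-cell libraries (difference -2.12, SE 0.27, adjusted p = 2.77e-04). Eif2b4, of the guanine exchange factor of eIF2, was at 47.1 and 32.2 against 7.76 and 8.02 (difference -2.28). The oocyte factor Eif4e1b fell less after SCNT (difference 1.397, SE 0.40, adjusted p = 0.0215), a call lost without any 1 of 6 libraries (adjusted p 0.052 to 0.083), with a pseudocount of 5 (0.054) and with no filter (0.052).

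**Figure D4:**
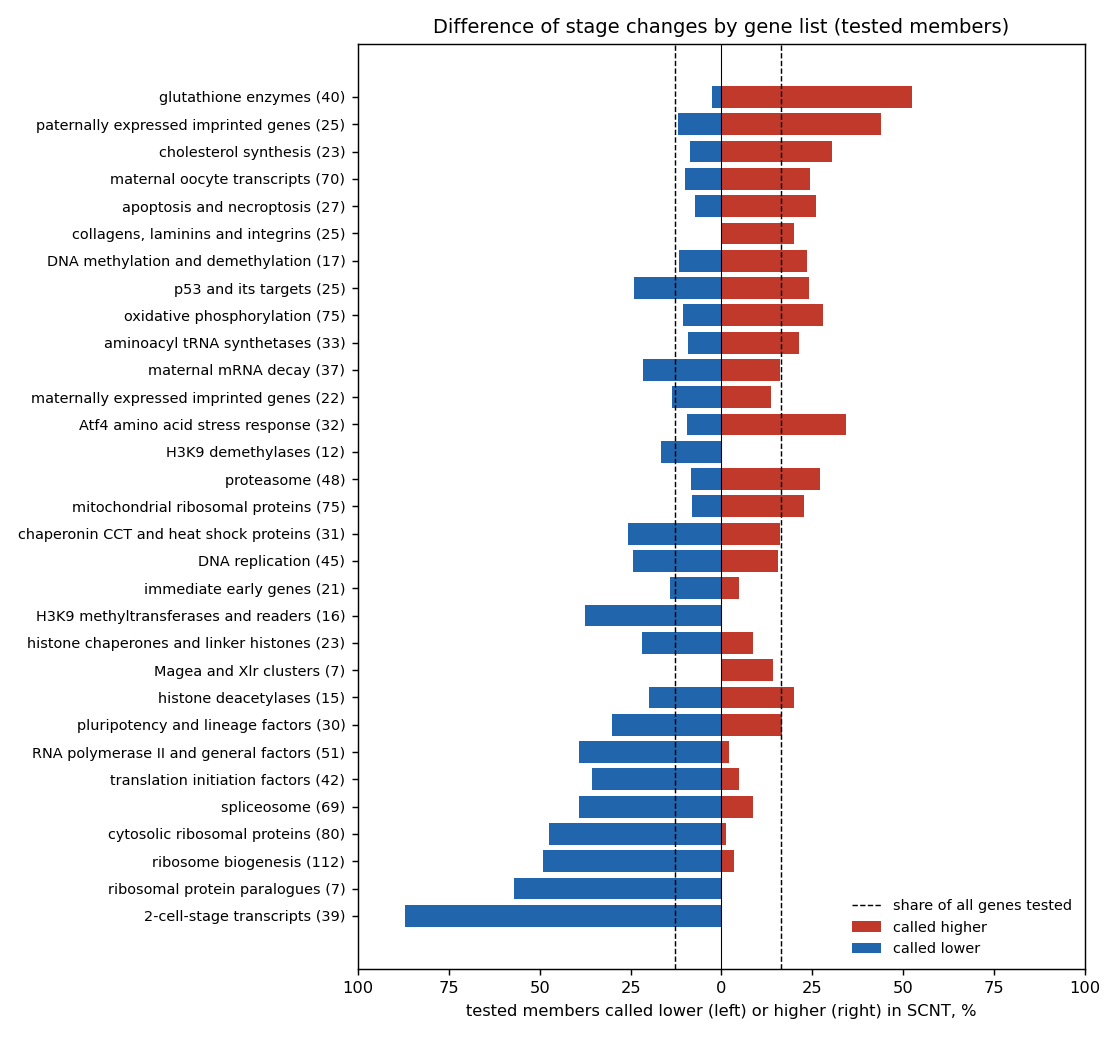
Share of the tested members of each list called higher (right) or lower (left) in the difference of stage changes, ordered by the list's median difference, with the number of members tested in brackets. Dashed lines give the shares of all tested genes, 16.5% and 12.7%; glutathione enzymes reach 52.5% higher and 2-cell-stage transcripts 87.2% lower.

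Glutathione and thioredoxin enzymes, which detoxify reactive compounds, lay at the other end. Of 40 tested, 21 (52.5%) were higher and 1 (2.5%) lower, against 16.5% and 12.7% of all tested genes. The median difference was 1.05. The list's summed level went from 2351 and 2352 to 817 and 821 FPKM after IVF and from 2115 and 2265 to 1498 and 1343 after SCNT. By limma, 7 members rose and 14 fell after IVF, and 20 rose and 9 fell after SCNT. Of all tested genes, 30.4% rose and 37.2% fell after IVF, and 35.5% rose and 31.6% fell after SCNT. Beside Gstm1 and Gsta4, the exception was Gpx1, a peroxidase gene, at 45.3 and 34.7 in IVF and 38.8 and 46.4 in SCNT 2-cell libraries (difference -1.65, SE 0.51, adjusted p = 0.0315). These 2-cell libraries overlap, and the difference stood at the 1-cell stage, with 10.4 and 25.8 in IVF and 61.2 and 53.9 in SCNT libraries. Its call was lost without any 1 of 7 libraries, at an adjusted p of 0.051 to 0.12, and held without the second IVF 1-cell library, at 0.0059. It was also lost with equal sums (adjusted p = 0.06), after quantile normalization (0.12) and with no filter (0.08).

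Imprinted genes expressed from the paternal copy had 11 higher (44%) and 3 lower (12%) members of 25, with a median of 0.66. Sfmbt2, a Polycomb-related gene (chr2:10292078-10516880), went from 0.204 and 0.0755 to 1.70 and 2.08 FPKM after IVF and from 0.519 and 0.191 to 21.4 and 17.8 after SCNT (difference 2.59, SE 0.46, adjusted p = 0.00186). The lower members were Zrsr1, a splicing factor copy (difference -2.17), Mcts2 (difference -2.34) and Usp29; Zrsr1 and Mcts2 lie inside Commd1 and H13, so their values are uncertain. Those expressed from the maternal copy had 3 higher and 3 lower of 22, with Phlda2 among the lower, near the background shares of 16.5% and 12.7%.

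Cell death genes had 7 higher (25.9%) and 2 lower (7.41%) members of 27 (median 0.52), against 16.5% and 12.7% of all tested genes. The counts were 3 and 2 with a pseudocount of 0.1, 5 and 3 after quantile normalization and 13 and 2 with equal sums. Casp2, an initiator caspase gene, ended at 1.70 and 1.17 in IVF and 7.03 and 8.95 in SCNT embryos (difference 2.07, SE 0.40, adjusted p = 0.0028). Mcl1, a survival gene, ended at 31.3 and 29.1 in IVF and 9.45 and 8.10 in SCNT embryos (difference -1.76). Targets of p53 split evenly, 6 higher (24%) and 6 lower (24%) of 25. Plk2, a kinase gene, was among the lower, at 15.3 and 10.6 in IVF and 4.83 and 3.67 in SCNT 2-cell libraries (difference -2.46, SE 0.38, adjusted p = 8.65e-04). The amino acid stress response under Atf4 had 11 higher (34.4%) and 3 lower (9.38%) of 32, but 7 and 6 after quantile normalization and 7 and 5 with a pseudocount of 0.1. Its transporter gene Slc38a2 reached 33.6 and 29.9 after SCNT and 0.155 and 0.241 after IVF (difference 2.79, SE 0.38, adjusted p = 3.60e-04), and Psph, of serine synthesis, 32.2 and 28.2 against 2.07 and 2.16 (difference 2.61). Psat1, of the same synthesis route, ended at 37.7 and 30.9 after SCNT and 59.8 and 47.3 after IVF, from 3.30 and 3.29 and from 0.121 and 0.342 at the 1-cell stage (difference -2.43), so part of its difference stood there, and Ppp1r15a, which reverses the stress block of translation, at 19.4 and 17.5 against 85.6 and 72.8 (difference -3.04, SE 0.48, adjusted p = 9.46e-04).

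Lists of energy and protein turnover had more higher than lower calls, but so had all tested genes (16.5% and 12.7%), and the balance depended on the libraries fitted. Oxidative phosphorylation had 21 higher (28%) and 8 lower (10.7%) members of 75 (median 0.28). The complex I gene Ndufs6 went from 9.68 and 11.3 to 4.51 and 3.97 after IVF and from 7.78 and 10.7 to 33.3 and 37.0 after SCNT (difference 2.97, SE 0.33, adjusted p = 1.12e-04). The proteasome had 13 (27.1%) and 4 (8.33%) of 48 (median 0.10), and Psmb10, an immunoproteasome subunit, ended at 2.04 and 1.72 in IVF and 14.5 and 11.5 in SCNT embryos (difference 2.08, SE 0.28, adjusted p = 3.38e-04). Mitochondrial ribosomal proteins had 17 (22.7%) and 6 (8%) of 75, near the background (median 0.09, and -0.06 after quantile normalization). Their contrast with the cytosolic ribosome was not itself tested. With the 8 libraries alone the counts were 24 and 16 for oxidative phosphorylation, 16 and 13 for the proteasome and 22 and 19 for mitochondrial ribosomal proteins. Cholesterol synthesis had 7 (30.4%) and 2 (8.70%) of 23 (median 0.62), with 12 and 1 under equal sums and 4 and 1 after quantile normalization. Transfer RNA synthetases had 7 (21.2%) and 3 (9.09%) of 33, near the background. Heat shock and chaperonin genes had 5 higher (16.1%) and 8 lower (25.8%) of 31. They were led by Hsp90b1, of the endoplasmic reticulum (difference 1.99, SE 0.22, adjusted p = 1.32e-04), and Hsph1, of the cytosol (difference -1.82, SE 0.33, adjusted p = 0.00195).

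Maternal transcripts fell in both kinds of embryo, 64 of 70 after IVF and 64 after SCNT, by limma. In the difference, 17 were higher (24.3%) and 7 lower (10%), against 16.5% and 12.7% of all tested genes. The median was 0.56. Of the 17 higher ones, 9 were Fbxw genes of 1 cluster on chromosome 9, so the higher count leans on neighbouring genes of 1 family. The counts were 28 and 6 with equal sums and 38 and 12 with the 8 libraries alone. The SCNT to IVF gap of these genes had a median of -0.30 at the 1-cell stage, with 0 called higher and 8 lower. At the 2-cell stage its median was 0.18, with 11 called higher and 13 lower. Their summed 2-cell level was 21292 and 21930 FPKM in IVF and 9963 and 11454 in SCNT libraries. The list thus does not show more maternal RNA in SCNT 2-cell embryos. Fbxw15 went from 227 and 228 to 11.8 and 11.9 FPKM after IVF and from 137 and 158 to 27.8 and 23.3 after SCNT (difference 1.66, SE 0.22, adjusted p = 3.38e-04). Nlrp14 started at 175 and 187 in IVF but 79.9 and 81.6 in SCNT embryos, and ended at 23.3 and 27.8 against 34.3 and 29.997 (difference 1.47, SE 0.20, adjusted p = 3.99e-04), so part of its difference stood at the 1-cell stage. Ccnb3, a meiotic cyclin gene, went from 9.06 and 8.47 to 4.61 and 9.21 after IVF and from 8.85 and 9.52 to 0.744 and 0.126 after SCNT (difference -2.49, SE 0.45, adjusted p = 0.00192). Genes that degrade maternal RNA had 6 higher (16.2%) and 8 lower (21.6%) of 37, with 2 and 7 at a pseudocount of 0.1 and 11 and 6 under equal sums. The deadenylase gene Cnot6l fell less after SCNT (difference 1.06, SE 0.25, adjusted p = 0.00892). Tob1, an adaptor of deadenylation, rose from 3.35 and 3.10 to 216 and 202 after IVF and from 7.22 and 7.18 to 71.5 and 70.2 after SCNT (difference -2.50, SE 0.22, adjusted p = 2.96e-05), and Dis3l, a cytoplasmic exosome nuclease gene, ended at 35.0 and 35.8 against 4.84 and 2.87 (difference -2.68).

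Both lists of histone H3 lysine 9 enzymes had calls only on the lower side, and the other chromatin lists had calls in both directions. Of 16 methyltransferases and readers of this lysine, 0 were higher and 6 (37.5%) lower, against 16.5% and 12.7% of all tested genes. Under equal sums 1 was higher and 3 lower. Setdb2 went from 7.76 and 8.79 to 23.5 and 20.8 FPKM after IVF and from 12.7 and 10.8 to 8.34 and 9.01 after SCNT (difference -1.71, SE 0.29, adjusted p = 0.00127). Of 12 demethylases, 0 were higher and 2 (16.7%) lower, a share near the 12.7% of all tested genes. The 2 were Kdm4a (difference -1.46, SE 0.33, adjusted p = 0.007) and Kdm4c (difference -1.20, SE 0.32, adjusted p = 0.0159). Kdm4c rose in both, to 36.7 and 33.0 after IVF and 24.9 and 16.9 after SCNT, and its difference lost the call with equal sums, after quantile normalization and without any 1 of 4 libraries (adjusted p 0.053 to 0.068). Histone deacetylases had 3 higher (20%) and 3 lower (20%) of 15, and DNA methylation genes 4 (23.5%) and 2 (11.8%) of 17, near the shares of all tested genes. The cofactor gene Dnmt3l stood at 5.78 and 5.54 in IVF and 26.7 and 24.7 in SCNT 2-cell libraries (difference 1.79, SE 0.19, adjusted p = 1.00e-04), though it overlaps Aire. Histone chaperones and linker histones had 2 (8.70%) and 5 (21.7%) of 23. H3f3b, for histone H3.3, stood at 854 and 777 and then 736 and 627 after IVF and went from 826 and 889 to 149 and 183 after SCNT (difference -2.11, SE 0.34, adjusted p = 0.00102).

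Pluripotency and lineage factors had 5 higher (16.7%) and 9 lower (30%) of 30, against 16.5% and 12.7% of all tested genes. Their median was -0.39, and the counts were 6 and 5 under equal sums. Tbx3 (chr5:120120678-120134610) went from 0.783 and 0.764 to 11.9 and 10.7 FPKM after IVF and stood at 0.638 and 0.469 and then 0.631 and 0.321 after SCNT (difference -2.87, SE 0.24, adjusted p = 2.26e-05). DNA replication genes had 7 higher (15.6%) and 11 lower (24.4%) of 45. Gmnn, for geminin, the inhibitor of replication licensing, went from 492 and 493 to 752 and 781 after IVF and from 437 and 441 to 171 and 164 after SCNT (difference -2.02, SE 0.23, adjusted p = 1.58e-04). Rfc4, of the clamp loader, ended at 4.55 and 4.56 against 26.1 and 25.8 (difference 2.79, SE 0.33, adjusted p = 1.78e-04), but it overlaps Eif4a2 and its value is uncertain. Immediate early genes had 1 higher (4.76%) and 3 lower (14.3%) of 21. In collagens, laminins and integrins 5 of 25 (20%) were higher and 0 lower, and in the Xlr and Magea clusters 1 of 7 (14.3%) was higher and 0 lower.

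Markers of cumulus and granulosa cells were low in the embryos against donor cells. The 58 cumulus and granulosa genes summed to between 264.1 and 382.2 FPKM in the 8 libraries against 26080 to 32180 in donor cells. Their sums were 302.4 to 317.2 in SCNT against 264.1 to 270.3 in IVF 1-cell libraries, and 351.6 to 382.2 against 293.1 to 315.2 at the 2-cell stage. Of these genes 25 stayed under 1 FPKM in all 8 libraries, among them Fshr, Foxl2 and Lhcgr, and Tnfrsf11b was at 0. In the difference 10 of the 54 tested were higher (18.5%) and 9 lower (16.7%), against 16.5% and 12.7% of all tested genes (median 0.04). Spp1, a secreted phosphoprotein gene, was in SCNT 1-cell libraries at 22.1 and 27.8 against 0.0700 and 0.602 in IVF 1-cell libraries, and at 13.2 and 12.7 against 9.18 and 18.7 at the 2-cell stage (difference -4.32, SE 0.61, adjusted p = 4.81e-04). Anxa2, an annexin gene, went up to 34.4 and 36.0 in SCNT 2-cell embryos against 2.04 and 3.23 in IVF (difference 3.07, SE 0.26, adjusted p = 2.48e-05). The immune list summed to 34.69 to 44.46 in SCNT and 14.97 to 15.43 in IVF 2-cell libraries, mostly Cd52 (difference 0.25, SE 0.44, adjusted p = 0.703), while Ptprc and Csf1r were under 1 FPKM in all 8 libraries. Endothelial markers summed to at most 7.368, and sperm markers to 110.2 in IVF and 102.1 in SCNT 1-cell libraries at most, with Prm1 under 1 throughout. Donor cells had at most 8.581 of the sperm markers. With sums this close in SCNT embryos, which were made without sperm, this list does not single out sperm. Oviduct epithelial markers summed to 68.96 to 76.26 in IVF and 70.52 to 78.54 in SCNT 2-cell libraries, above the 28.2 to 44.21 of donor cells. Red blood markers summed to at most 2.899 in IVF and 19.3 in SCNT 2-cell libraries, mainly Hba-a2 with 86.3% shared stretches. The part of other cells in the differences was not tested.

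On chromosomes, the share of higher genes ran from 13.008% on the X to 22.9% on chromosome 18, leaving aside the Y and unplaced pieces, and the share of lower genes from 8.37% on chromosome 6 to 19.1% on the X. All 4 tested Y-linked genes were lower. Eif2s3y, a translation factor gene, was at 15.1 and 11.6 FPKM in IVF 2-cell libraries and at 0 in both SCNT 2-cell libraries and both donor libraries (difference -3.77, SE 0.19, adjusted p = 6.99e-07). The donor cumulus cells come from females. Xist, the noncoding RNA of X inactivation, was at 0.222 and 0.165 in IVF and 4.98 and 4.59 in SCNT 2-cell libraries (difference 2.15, SE 0.29, adjusted p = 3.79e-04), though its reads and those of the overlapping antisense Tsix cannot be told apart. These genes were singled out after their values were seen, and sex of the embryos and kind of embryo cannot be told apart for them.

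The 4 libraries with added Kdm4d do not enter the value of the difference, but through the fit of all libraries they enter its error and the filter on low values. Genes lower after SCNT had more RNA with Kdm4d than with the mutant: the median of Kdm4d minus mutant was 1.09 on the log2 scale, and 93.3% of the 1704 were above 0, against a median of -0.09 and 43.5% of all tested genes. Genes higher after SCNT had a median of -0.62, and 10.8% of them were above 0. In the fit of all libraries, Kdm4d minus mutant was called higher for 2878 genes (21.4%) and lower for 3026 (22.5%). Of the lower genes 1340 were among those called higher and 21 among those called lower, and of the higher genes 37 and 1285. These calls lean on the spread of the other groups. The Kdm4d and mutant replicates had a robust SD of 0.349 and 0.372 on the log2 scale against 0.0829 to 0.177 in the 4 groups, and a fit of these 4 libraries alone with limma called 0 genes, with 3899 at an unadjusted p under 0.05. With the difference fitted on its 8 libraries alone, which called 2618 lower and 3794 higher genes, the medians of Kdm4d minus mutant were 0.94 and -0.53, and 88.5% and 15.4% of the genes were above 0. Without genes over 30% shared, but with genes of unmeasured share kept in, the medians were 1.08 and -0.62.

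**Figure D5:**
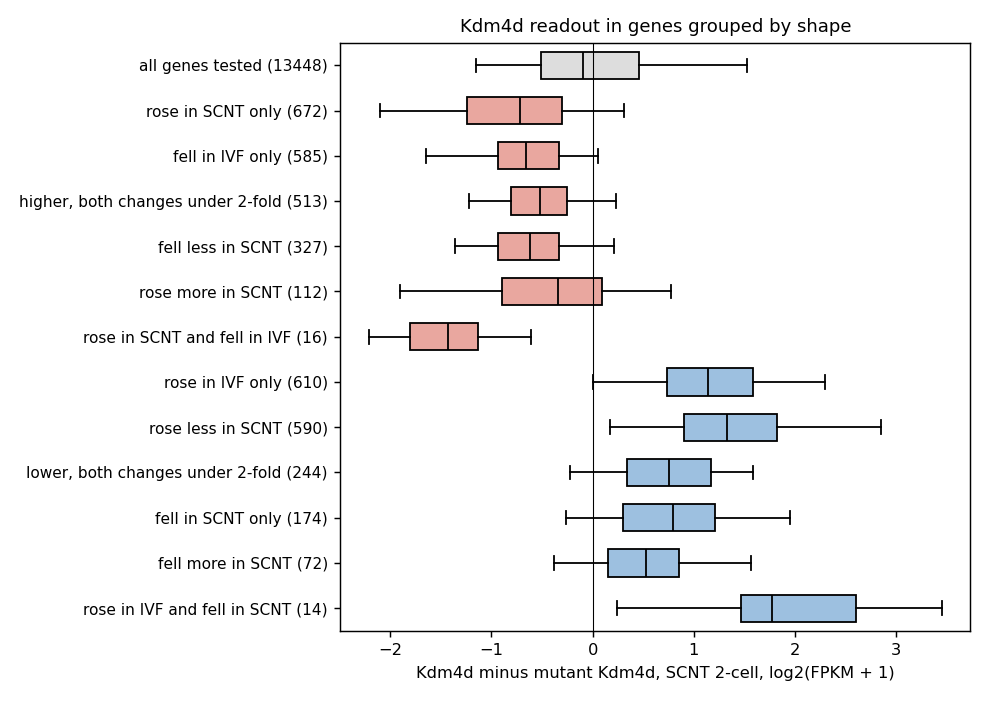
Kdm4d minus mutant Kdm4d in SCNT 2-cell embryos, on the log2(FPKM + 1) scale, over the genes of each shape; boxes span the quartiles with the median as a line, whiskers the 5th to 95th percentiles of genes. All 6 shapes higher after SCNT have medians below 0, and all 6 lower shapes have medians above 0.

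The shapes differed in size. The median of Kdm4d minus mutant was 1.33 in genes that rose less after SCNT and 1.14 in those that rose in IVF with under a 2-fold change in SCNT, and it was 0.53 in those that fell more after SCNT. Among higher shapes it ran from -1.43 in genes with opposite changes to -0.34 in those that rose more after SCNT. Differences between shapes were not tested.

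Single genes followed different courses. Obox3 had 90.4 and 110.5 FPKM with Kdm4d and 3.35 and 6.93 with the mutant, beside 141 and 128 in IVF 2-cell libraries. Gm13078 had 108 and 133 against 0.146 and 4.69, and Gsta4, on the other side, 14.042 and 19.6 against 78.5 and 67.2. In these 3 the Kdm4d libraries lay on the IVF side and the mutant libraries on the SCNT side. 1700013H16Rik had 8.72 and 4.34 with Kdm4d and was at 0 in both mutant libraries, so its Kdm4d level stayed far below the 135 and 154 of IVF. Rpl39l had 13.4 and 5.88 with Kdm4d and 10.2 and 5.28 with the mutant, ranges that overlap, and Tbx3 0.789 and 0.543 against 0.570 and 0.884, all under 1. Phlda2 was high in both, at 63.4 and 43.6 against 57.5 and 33.4, against 3.43 and 3.52 in plain SCNT 2-cell libraries.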

How the data were processed

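Messenger RNA of pooled embryos was turned into cDNA with the SMARTer Ultra Low Input kit and sequenced as single-end reads, per the labels' protocols. The deposited FPKM values were made by the authors with Novoalign (version not given in the sources used here) and Cufflinks 2.0.2 on mm9, per the submitters' processing notes. FPKM gives no counts, so the depth behind a value is known only as the relative depth given with the results.

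Of 23697 table rows, 812 short RNAs were left out (806 by name, the others spanning under 200 bases), and rows of 1 symbol were summed, which gave 22485 genes. Starts in the table count from 0, and 1 was added. Values were tested as log2(FPKM + 1), a scale that understates changes of low genes, in the 13448 genes that reached 1 FPKM in 2 or more of 14 libraries. A limma 3.58.1 fit (R 4.3.3) with an intensity trend and 7 group means had 7 residual degrees of freedom, and p-values were adjusted by Benjamini-Hochberg over all 13448 genes, with a threshold of 0.05. Shared stretches are the 50-base stretches of a gene's GENCODE vM21 transcripts that also occur in another gene's. The alternatives covered the pseudocount, filters, scaling, the libraries fitted, weights, the trend, the replicate block and leaving out each library. The members and lists were chosen with earlier results of these data known.

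Named genes are a selection from a rule. It takes, for each shape, the 3 largest differences whose mean reached 5 FPKM in 1 of the 4 groups and no overlap between single-library changes, and, of each list, up to 2 called members in each direction by size. Kdm4d is added. Genes outside it are said to be chosen after their values were seen, as are Cd52 and Hba-a2, named because they dominate their marker sums.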

Additional observations from a re-analysis of the deposited data

Results flagged for a closer look

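The 2 kinds of embryo differed in their stage change, by the test of the difference itself, in 2225 genes upward and 1704 downward. Among the genes taken by the naming rule, 9 had opposite changes of at least 2-fold each in SCNT and IVF embryos, with each difference past the limma threshold. Those that rose after SCNT and fell after IVF were Ddx58 (difference 3.92), Ptgr1 (3.42), Ppil3 (3.39), Anxa2 (3.07) and Ndufs6 (2.97). Those that rose after IVF and fell after SCNT were Rpl39l (-5.83), Zscan4d (-5.01), Akr1c18 (-5.00) and Gins2, of the replication helicase (-2.63). Gins2 went from 19.2 and 18.8 to 59.9 and 58.6 FPKM after IVF and from 27.0 and 24.3 to 12.4 and 11.5 after SCNT, with 70.2% of its stretches shared, and its value is uncertain.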

How the results depend on the processing

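Among the genes called in the difference of stage changes, 0 were called with the other sign under any of the 21 alternatives run. Requiring 5 FPKM in 2 of the 8 libraries left 1454 genes called higher and 1521 lower, of 7206 tested, so that 48.9% of the calls were higher against 56.6%. Equal sums of FPKM gave 3447 higher and 1187 lower, 74.4% of the calls on the higher side, and quantile normalization gave 1787 and 1794, or 49.9%. The 8 libraries alone gave 3794 and 2618, and library weights per group 3940 and 2654. Replicate numbers did not pair the samples (correlations of deviations from -0.027 to 0.047), and with a replicate block the counts were 3741 and 2601 in the 8 libraries and 2120 and 1634 in all 14. Leaving out 1 library gave 1324 to 1709 higher and 1176 to 1414 lower genes. The higher count moved by over 1.5 times without IVF 1-cell replicate 1 (1367) or 2 (1324) and without SCNT 1-cell replicate 1 (1364) or 2 (1353), each leaving 1 library in its group, assumed to vary like the others. The cause was not tested for the other moves.

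Of 136 genes taken by the naming rule, 129 were called, and 27 lost the call without some library. Mycn changed sign with a pseudocount of 0.1 (-0.32, adjusted p = 0.67). Of 74 list counts, 24 moved by over 1.5 times with equal sums, 13 after quantile normalization and 28 in the 8 libraries alone. The counts of genes by shape moved as well: 4 of them with a pseudocount of 0.1, 1 after quantile normalization and 6 in the 8 libraries alone. The equal sums and the shared-stretch alternatives for lists, and both other readings of the Kdm4d libraries, were chosen after seeing the data. With 2 libraries a group, precision is limited most for low genes.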

Other observations

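Called genes stood next to each other in places. In windows of 5 neighbouring tested genes with at least 4 called in 1 direction, 49 stretches were higher and held 221 called genes, and 27 were lower and held 124. No test was made of how many such stretches chance would give, and the ones named here were chosen after their values were seen. Gstm7, Gstm6, Gstm3, Gstm1 and Gstm4, neighbouring glutathione transferase genes on chromosome 3, were all higher. Apoc2, Apoc4, Apoc1 and Apoe, the apolipoprotein genes of chromosome 7, were higher too. Apoe went from 0.667 and 0.378 to 1.60 and 1.33 FPKM after IVF and from 0.728 and 0.629 to 5.57 and 4.01 after SCNT (difference 1.08, SE 0.30, adjusted p = 0.018). On the X chromosome, 1700013H16Rik, Gm773, 1600025M17Rik and Ddx26b were lower. Gm773 went from 0.344 and 0.635 to 4.04 and 5.27 after IVF and from 0.255 and 0.294 to 0 and 0.0847 after SCNT (difference -2.21, SE 0.54, adjusted p = 0.00988). Neighbouring genes of a family can share sequence or reads.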
